A study of Mus musculus with 8 samples.

Results

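A set of 10 genes of DNA replication, Rrm2, Cdc6, Uhrf1, Atad2, Exo1, Ccne2, Hells, Clspn, Dscc1 and Pclaf, were followed across the cell classes of mouse hepatoma tumours. They were taken by name, as 10 of the 2000 genes of a pooled single-cell table, and all 10 were present. The tumours grew from Hepa1-6, a mouse hepatoma line, and their single cells were sequenced from the 3′ ends of transcripts captured in droplets. The labels give 4 groups, each with a cDNA and an oligo entry: WT tumours given PBS by intraperitoneal injection, WT tumours given an antibody against PD-1 by the same route, and Soat1-edited tumours given either. The genotype field calls the editing a knockdown, whereas the entry titles call it a knockout, and neither the host strain nor the number of clones or animals per group is stated there. The 53528 cells carry names ending in 1 to 6, here called sets 1 to 6, and nothing ties a set to a group, so the cells were treated as 1 pooled sample, with the sets as 6 unassigned samples. No genotype or treatment was compared, and no p-value was computed.

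A cell copies its genome in S phase, between the growth phase G1 and the phases G2 and M, in which it prepares for and carries out division. Replication genes are held silent in resting cells by the retinoblastoma proteins and are switched on by E2F factors when a cell commits to division, so their transcripts mark cells in or near S phase. Hepatoma cells divide because of their transformation. CD8 T cells divide after antigen recognition, while mature neutrophils no longer divide.

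The promoters of the members the results turn on are shown because E2F motifs are the best known shared feature of this gene class. RefSeq (GRCm38.p6) gave promoters, from 250 bases before to 50 after the gene start, for 6 of the 10 members, 7 promoters in all since Uhrf1 has a pair of starts. The runs below are on the plus strand, 5′ to 3′, 140 bases each. Capitals mark a match to TTTNNCGC, an E2F-type motif, on either strand.
Hells, chr19:38930850-38930989: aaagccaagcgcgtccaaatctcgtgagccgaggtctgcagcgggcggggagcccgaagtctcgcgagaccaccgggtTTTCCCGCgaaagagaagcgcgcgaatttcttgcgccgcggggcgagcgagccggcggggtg
Pclaf, chr9:65890186-65890325: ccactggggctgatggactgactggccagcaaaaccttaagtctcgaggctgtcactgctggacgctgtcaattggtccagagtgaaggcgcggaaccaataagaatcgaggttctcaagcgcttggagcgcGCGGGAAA
Cdc6, chr11:98908011-98908150: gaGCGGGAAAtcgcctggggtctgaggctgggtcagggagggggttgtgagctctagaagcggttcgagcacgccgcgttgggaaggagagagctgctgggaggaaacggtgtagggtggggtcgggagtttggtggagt
Uhrf1, chr17:56303197-56303336: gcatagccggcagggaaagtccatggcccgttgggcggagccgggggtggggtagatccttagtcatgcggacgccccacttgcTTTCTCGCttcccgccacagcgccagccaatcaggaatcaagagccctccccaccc
Rrm2, chr12:24708114-24708253: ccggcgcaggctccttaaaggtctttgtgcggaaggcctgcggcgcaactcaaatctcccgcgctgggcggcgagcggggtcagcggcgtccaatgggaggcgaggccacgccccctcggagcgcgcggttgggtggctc

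The motif was found in 6 of the 7 member promoters, from 5 of the 6 members with an entry, and in 5.17% of all 32851 promoters of the same length. The Hells match began 62 bases before the gene start and the Cdc6 match 138 bases before it. In Pclaf the match began 5 bases before the start and ran across it. Clspn held its match after the start. The Rrm2 window held no match to these letters. CCAAT, a second motif looked for after the sequences had been seen, was in 5 of the 7 promoters against 37.4% of all promoters. These matches describe the letters and were not tested as binding sites.

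Cells were sorted into 9 classes by marker genes. A marker counted as present above a deposited value of 1, the natural log of 1 plus UMIs per 10000. This gave 22502 hepatoma cells, 8978 CD8 T cells, 562 CD4 T cells, 232 regulatory T cells, 234 NK cells, 2738 macrophages, 279 dendritic cells, 588 fibroblasts and 315 neutrophils, and left 17100 cells in no class. The levels of the gate's own markers follow from the gate, so the classes were checked on genes outside it. Icos, a T-cell costimulatory receptor, was at 491 CPM (UMIs scaled to a class total of 1000000) in CD4 T cells, 816 in regulatory T cells, 180 in CD8 T cells and 1.76 in hepatoma cells. Dcn, a matrix proteoglycan, was at 1619 CPM in fibroblasts and 20.03 in hepatoma cells. H2-Ab1, an MHC class II gene, was at 4504 CPM in dendritic cells, 2255 in macrophages and 182 in hepatoma cells. Ighm, a B-cell gene also outside the gate, went against the class names. It was at 280 CPM in CD8 T, 253 in regulatory T and 119 in dendritic cells, and at 2.56 in hepatoma cells. Over all sets it lay above 0.5 in 4.80% of CD8 T and 45.7% of regulatory T cells. UMI counts could be recovered in set 1 alone, where the 9370 cells held 1001 to 261833 UMIs with a median of 11098.5. Values for set 1 therefore come from UMIs, and those for all 6 sets from the deposited scale. Depth differed by class, with medians of 20927 UMIs in hepatoma cells, 5498 in CD8 T cells, 3189 in macrophages and 1240.5 in neutrophils. Transcripts high in the hepatoma cells were also counted in the other classes. Over Afp, Alb, Trf and Ahsg, transcripts of secreted liver proteins, the level relative to hepatoma cells was 0.0950 to 0.145 in CD8 T cells, 0.143 to 0.286 in macrophages and 0.253 to 0.459 in neutrophils, with Alb lowest and Trf highest in neutrophils. Where these transcripts came from was not tested, nor was the part of hepatoma RNA in the member values below.

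CD8 T cells held a higher share of cells called in S phase than hepatoma cells, and on the deposited scale the highest of the 9 classes. A cell was called in S phase when at least 2 of the 10 members were detected and more members than genes of a list of 10 mitotic genes (Ube2c, Cenpf, Cdc20, Ccnb1, Ccnb2, Plk1, Hmmr, Cenpa, Aurka and Cenpe). In set 1, with each cell thinned to 2000 UMIs, 174 of 784 CD8 T cells were called, or 22.2% (95% exact Clopper-Pearson interval 19.3 to 25.3). Among hepatoma cells 407 of 5172 were called, or 7.87% (7.15 to 8.64). Intervals here and below cover counting error only. The CD8 T interval lay above that of the hepatoma cells, and also without thinning, at 28.0% (25.1 to 31.0) against 20.7% (19.6 to 21.8). The unthinned order rests on the condition on mitotic genes. It kept 2162 hepatoma cells and 239 CD8 T cells with at least 2 members from being called. Thinning left out 121 of 905 CD8 T cells and 125 of 5297 hepatoma cells. The call was not recomputed without Pclaf, a member detected after thinning in 34.2% of CD8 T and 4.25% of hepatoma cells. How far the order of the classes rests on Pclaf was thus not tested.

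The order of these classes was the same in every set. On the deposited scale, with a gene counted as detected above 0.5, the S-called shares of CD8 T cells in sets 1 to 6 were 28.6%, 18.8%, 20.4%, 18.2%, 23.1% and 21.7%. Those of hepatoma cells were 13.6%, 13.8%, 19.3%, 9.81%, 15.8% and 16.2%. CD8 T cells were above hepatoma cells, and above every other class, in 6 of 6 sets, although the ranges of CD8 T and hepatoma cells overlapped across sets. The gap was smallest in set 3 and largest in set 1. The cutoff of 0.5 weighs on deep cells, where 1 UMI can fall below it, and hepatoma cells were the deepest class of set 1. Rrm2, for one, was detected there by any UMI in 42.3% of hepatoma and 33.3% of CD8 T cells. Above 0.5 it was detected in 23.9% and 31.8%. All 6 sets share this cutoff, and at 0.3 the pooled shares nearly met, as given below. Hepatoma cells of set 4 had the lowest share of that class and also its lowest mitotic share, 26.3% against 33.3% to 37.9% in the other 5 sets.

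**Figure D1:**
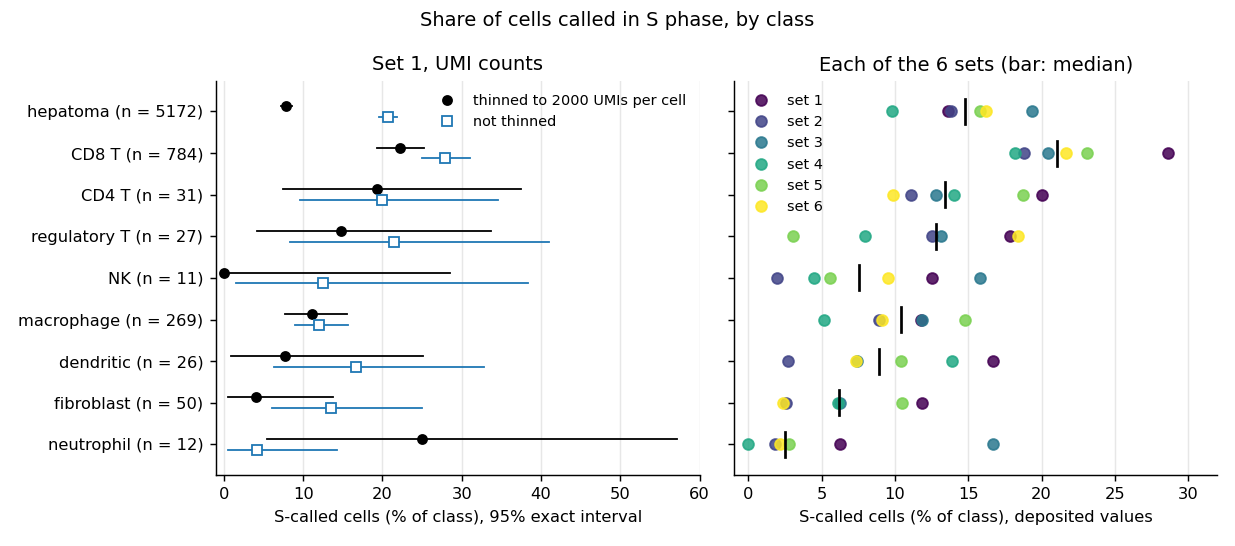
Share of cells called in S phase by class, in percent. Left, set 1 from UMI counts, with cells thinned to 2000 UMIs (black, n beside each class) and not thinned (blue squares), bars being 95% exact intervals; right, the 6 sets on the deposited scale, with the median as a bar. CD8 T cells lie at 22.2% thinned and are the highest class in each of the 6 sets.

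CD4 T cells, the helper lineage, gave 6 S-called cells of 31 after thinning, or 19.4% (7.45 to 37.5), and a median over the sets of 13.4%. Regulatory T cells, which restrain other T cells, gave 4 of 27, or 14.8% (4.19 to 33.7), with a median of 12.8%. Both intervals hold the CD8 T and the hepatoma value, so these small classes could not be placed between them in set 1. NK cells, killer lymphocytes without a T-cell receptor, gave 0 of 11, with an exact upper limit of 28.5%, and 1.96% to 15.8% over the sets. CD4 T, regulatory T and NK cells each fell below CD8 T cells in 6 of 6 sets.

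Among macrophages, phagocytes that can divide within tissue, 30 of 269 cells were S-called after thinning, or 11.2% (7.65 to 15.5). The 6 sets gave 11.8%, 8.88%, 11.8%, 5.16%, 14.8% and 9.09%. Their place relative to hepatoma cells depended on depth: higher after thinning with overlapping intervals, lower without it at 12.0%, and lower in 6 of 6 sets on the deposited scale. Dendritic cells, which present antigen, gave 2 of 26 cells, or 7.69% (0.946 to 25.1). Fibroblasts, the matrix-forming cells, gave 2 of 50, or 4.00% (0.488 to 13.7), and a median over the sets of 6.21%. Fibroblasts were below hepatoma cells in 6 of 6 sets.

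Neutrophils were taken as the class with the least division, although the gated class was not made up of mature cells alone: 2 of its 48 cells in set 1 held at least 100 UMIs of Camp, a granule gene of neutrophil precursors, and 37 of its 71 member UMIs. On the deposited scale their shares were 6.25%, 1.82%, 16.7%, 0%, 2.78% and 2.17% in sets 1 to 6, with 3 of 18 cells behind the value of set 3. Only 12 neutrophils of set 1 reached 2000 UMIs, and 3 of them were called, 25.0% (5.49 to 57.2), so at that depth they give no usable background. At 1000 UMIs none of 48 was called, with an exact upper limit of 7.40%. CD8 T cells at that depth, at 14.0% (11.8 to 16.5), were above this limit. Macrophages, at 7.93% (5.45 to 11.1), and hepatoma cells, at 3.74% (3.24 to 4.28), were not distinguishable from it. Without thinning 2 of 48 neutrophils were called, 4.17%. Hepatoma and CD8 T cells exceeded neutrophils in 6 of 6 sets, and macrophages in 5, all but set 3.

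Members were next compared by level. One UMI stands for 1 captured transcript end whatever the length of the transcript, so levels are given as CPM. The 10 members together stood at 1141 CPM in CD8 T cells (exact Poisson interval 1116 to 1168) and at 331 in hepatoma cells (328 to 334). CPM is a share of the UMIs of a class, not an amount per cell. The 905 CD8 T cells held 7392 member UMIs and the 5297 deeper hepatoma cells 45396, a similar number per cell. Regulatory T cells were at 1235 (1075 to 1412) and CD4 T cells at 1010 (896 to 1135). Member UMIs lay in 15 of 28 regulatory T and 20 of 45 CD4 T cells, so these levels rest on few cells. The CD4 T level fell with a stricter gate, as given below. On the deposited scale CD8 T cells had higher detection than CD4 T cells in 6 of 6 sets for Pclaf and Hells, and in 4 for Dscc1. NK cells were at 567 (390 to 797), macrophages at 381 (351 to 412), dendritic cells at 243 (174 to 330) and fibroblasts at 206 (169 to 248). Dendritic cells and fibroblasts did not differ beyond these intervals. Neutrophils stood at 634 (495 to 800), with the 2 Camp-rich cells included.

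In CD8 T cells 6 of 10 members were at least 2-fold higher than in hepatoma cells, where 21.2% of all 2000 genes were. None was 2-fold lower, against 33.5% of all genes. The median log2 ratio was 1.11 over the members and -0.19 over all genes, on the scale of CPM plus 1. Regulatory T cells had 7 members at least 2-fold higher (18.9% of all genes) and none lower (37.9%), and CD4 T cells had 5 higher (20.5%) and none lower (37.6%). NK cells had 3 higher (14.2%) and 3 lower (44.2%), on 33 member UMIs, and 2 of the 3 lower ones had no UMI, so that their place rests on the pseudocount. Macrophages had 1 higher (22.1%) and 1 lower (30.2%), and dendritic cells 1 higher (18.5%) and 3 lower (39.9%), of which 2 had no UMI. In fibroblasts 5 members were at least 2-fold lower (30.2%) and none higher (27.1%), but with a pseudocount of 10 CPM in place of 1 none was 2-fold lower. Neutrophils had 3 higher (19.8%) and 1, Dscc1 with no UMI, lower (30.9%).

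**Figure D2:**
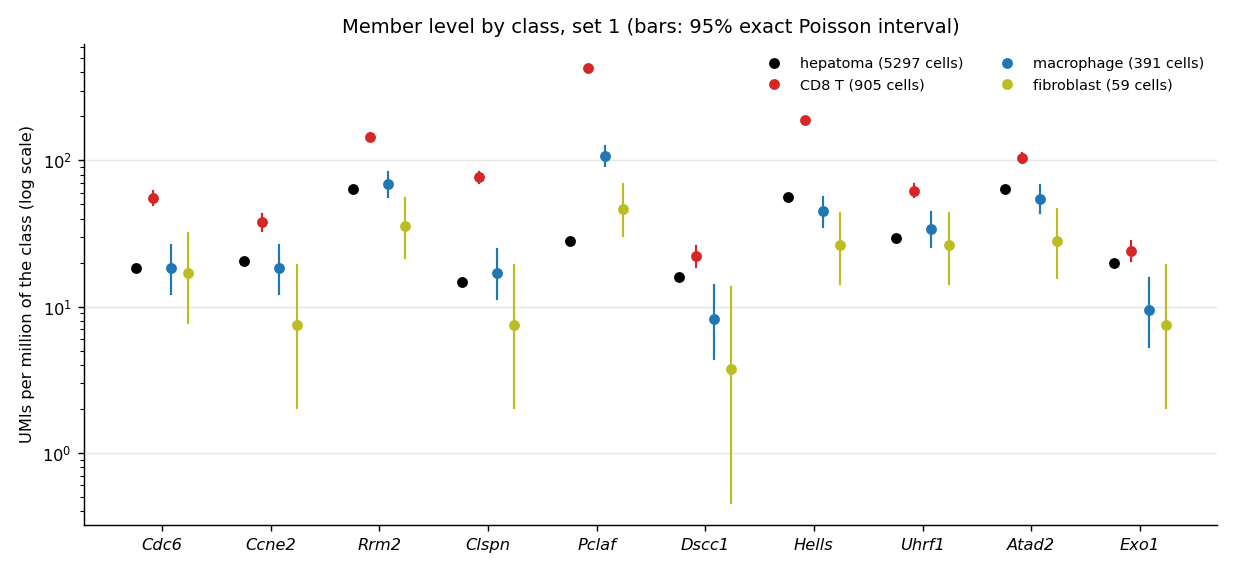
Level of each member in hepatoma cells, CD8 T cells, macrophages and fibroblasts of set 1, in CPM on a log axis; bars are 95% exact Poisson intervals. Pclaf differs most between CD8 T cells (427) and hepatoma cells (28.2), and Exo1 least (24.1 and 19.96).

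Cdc6 and Ccne2 act at the entry to S phase. Cdc6 loads the MCM helicase onto origins, and stood at 55.3 CPM in CD8 T cells, 18.4 in hepatoma cells and 18.3 in macrophages. The CD8 T level was 3.01 times that of hepatoma cells (interval 2.68 to 3.36). Detection of Cdc6 over the 6 sets ran from 9.62% to 17.6% of CD8 T cells (median 12.4%) and from 4.74% to 12.8% of hepatoma cells (median 9.30%), and CD8 T cells were higher in 5 of 6 sets. Ccne2 encodes cyclin E2, a partner of Cdk2, and was 1.83 times higher in CD8 T cells (1.60 to 2.09), at 37.7 against 20.6 CPM. Its detection did not order the classes, with hepatoma cells higher in 3 of 6 sets.

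Rrm2 encodes the regulated subunit of ribonucleotide reductase, which makes deoxynucleotides. It stood at 145 CPM in CD8 T cells (136 to 155), 64.2 in hepatoma cells (62.8 to 65.5), 68.7 in macrophages (56.4 to 82.9) and 35.6 in fibroblasts (21.4 to 55.6). The ratio of CD8 T to hepatoma cells was 2.26 (2.11 to 2.42), whereas macrophages and hepatoma cells did not differ beyond their intervals. Over the sets Rrm2 was detected in 22.2% to 31.8% of CD8 T cells (median 26.8%) and 18.9% to 28.5% of hepatoma cells (median 26.5%), and hepatoma cells were higher in 3 of 6 sets. Thinned to one depth in set 1 the shares were 17.1% of CD8 T and 9.18% of hepatoma cells. The ranges on the deposited scale overlap nearly whole.

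Pclaf, Clspn and Dscc1 work at the fork. Pclaf encodes a small partner of the sliding clamp PCNA. It stood at 427 CPM in CD8 T cells (411 to 443), 385 in regulatory T cells (298 to 489), 337 in CD4 T cells (272 to 412), 107 in macrophages (91.7 to 125) and 28.2 in hepatoma cells (27.3 to 29.1). The CD8 T level was 15.1 times that of hepatoma cells (14.4 to 15.9), the widest gap among the members, and the macrophage level was 3.80 times (3.24 to 4.44). Pclaf was detected in 28.4% to 47.7% of CD8 T cells over the sets (median 36.2%) and 7.38% to 14.8% of hepatoma cells (median 13.2%), and these ranges did not overlap. In macrophages detection ran from 5.97% to 20.3% (median 12.9%), above hepatoma cells in 3 of 6 sets.

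Pclaf made up 37.4% of the member UMIs in CD8 T cells (36.3 to 38.5), 33.3% in CD4 T cells, 31.2% in regulatory T cells and 28.1% in macrophages (24.6 to 31.9). In hepatoma cells it made up 8.51% (8.25 to 8.77), less than Rrm2 at 19.4%, Atad2 at 19.2% and Hells at 17.0%. Fibroblasts, at 22.7% (15.3 to 31.7), and dendritic cells, at 26.8% (14.2 to 42.9), were above hepatoma cells too. These shares rest on 25 Pclaf UMIs in 8 fibroblasts and 11 in 5 dendritic cells. In NK cells the share was 21.2% (8.98 to 38.9). All 7 Pclaf UMIs of that class came from 1 of 16 cells, so this share does not describe the class. The neutrophil share, 15.5%, had an interval that holds the hepatoma value.

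Clspn encodes claspin, the adaptor that lets the checkpoint kinase Chk1 be activated at stalled forks. It stood at 76.4 CPM in CD8 T cells and 14.8 in hepatoma cells, a ratio of 5.18 (4.68 to 5.72). Detection over the sets was 14.7% to 23.2% of CD8 T cells (median 18.0%) and 3.89% to 7.86% of hepatoma cells (median 6.99%), again without overlap. Dscc1, a subunit of an alternative clamp loader that serves sister-chromatid cohesion, was close between these classes, at 22.1 against 15.9 CPM and a ratio of 1.39 (1.16 to 1.65). Macrophages held 8.19 CPM of Dscc1, 0.515 of the hepatoma level (0.274 to 0.883).

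Hells, Uhrf1 and Atad2 act on chromatin. Hells encodes a remodelling ATPase needed for DNA methylation, and stood at 188 CPM in CD8 T cells (178 to 199), 56.2 in hepatoma cells (55.0 to 57.5) and 44.8 in macrophages (35.0 to 56.5). The ratio of CD8 T to hepatoma cells was 3.35 (3.15 to 3.55). Hells was detected in 27.9% to 43.8% of CD8 T cells over the sets and 17.6% to 29.5% of hepatoma cells. Above 0.5, these ranges overlap at their ends, yet CD8 T cells were higher in 6 of 6 sets, as for Clspn and Pclaf. For no other member was the order the same in all 6 sets. The Hells order did not hold by any UMI without thinning. In set 1 these shares were 45.4% of hepatoma and 44.9% of CD8 T cells, with overlapping intervals. Thinned to 2000 UMIs they were 9.13% and 25.0%.

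Uhrf1 encodes the reader of half-methylated DNA that brings the maintenance methyltransferase to new strands. It was 2.11 times higher in CD8 T than in hepatoma cells (1.90 to 2.34), at 62.1 against 29.4 CPM. Above 0.5 it was detected more often in CD8 T cells in 5 of 6 sets. By any UMI in set 1 it was detected in 26.6% of CD8 T and 32.7% of hepatoma cells. Thinned to 2000 UMIs the shares were 8.16% and 5.55%. Atad2, a bromodomain ATPase, differed less, at 104 against 63.7 CPM, a ratio of 1.63 (1.504 to 1.76). Hepatoma cells had the higher Atad2 detection in 4 of 6 sets. Exo1 encodes an exonuclease of mismatch repair and end resection, and was the member closest to equal between these classes, at 24.1 against 19.96 CPM, a ratio of 1.21 (1.02 to 1.42). In macrophages Exo1 stood at 0.474 of the hepatoma level (0.265 to 0.783), on 15 UMIs.

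Fibroblasts had Atad2 at 0.441 (0.247 to 0.728), Ccne2 at 0.364 (0.0990 to 0.932), Hells at 0.466 (0.255 to 0.783) and Exo1 at 0.375 (0.102 to 0.962) of the hepatoma level, and Dscc1, on 2 UMIs, at 0.236 (0.0285 to 0.852). Pclaf was the exception, at 1.66 times the hepatoma level (1.07 to 2.46) on 25 UMIs. Dendritic cells had no UMI of Uhrf1 or Dscc1 in 36 cells, where 3 UMIs would be 17.8 CPM. By the exact interval Uhrf1 was at most 0.744 of the hepatoma level, while for Dscc1 the depth was too low to show a difference. NK cells had no UMI of Cdc6 or Dscc1 in 16 cells, which their depth does not separate from the hepatoma level.

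Other genes of replication and division were read in the same way from lists of 20 and 35 genes. In CD8 T cells 15 of 20 other replication genes were at least 2-fold above hepatoma cells, with a median log2 ratio of 1.35, and 18 of 35 G2 and M genes, with a median of 1.00. Macrophages had none of either list 2-fold higher, with medians of -0.08 and -0.60. Fibroblasts had 9 of 20 replication genes 2-fold lower, and dendritic cells 11. The same shares of all genes given above are the background of these counts.

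Within a class, the genes outside the call were compared between S-called and other cells. Of 253 S-called CD8 T cells of set 1, taken without thinning, 9 of 20 other replication genes were at least 2-fold higher than in the remaining CD8 T cells, against 2.27% of the 1980 genes outside the call. Among the highest were Dtl, which marks proteins for destruction at replicating DNA, at 109 against 29.8 CPM, a ratio of 3.64 (2.92 to 4.55), and Ccne1, the sister cyclin of Ccne2, at 2.79 (2.13 to 3.68). The lowest were Esco2, an acetyltransferase of cohesin, at 0.772 (0.556 to 1.06), and Fbxo5, an inhibitor of the anaphase-promoting complex, at 1.13 (0.965 to 1.31). In all, 19 of 20 ratios were above 1.

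Among hepatoma cells, with 1095 S-called cells, 20 of 20 replication genes were higher but only 1 by 2-fold, against 0.152% of all genes. The highest were Ccne1 at 33.8 against 15.8 CPM, a ratio of 2.14 (1.98 to 2.31), E2f8, a repressor of the E2F family, at 2.06 (1.84 to 2.31), and Dtl at 1.97 (1.83 to 2.12). Tk1 and Tyms, both of thymidylate supply, were lowest at 1.03 (0.943 to 1.13) and 1.06 (0.979 to 1.14). Ratios were on the scale of CPM for single genes and of CPM plus 1 for counts. S-called cells were deeper than the others, with medians of 23169 against 20053.5 UMIs in hepatoma cells and 7445 against 4636 in CD8 T cells. Thinned to 2000 UMIs, all 20 genes in hepatoma cells and 17 of 20 in CD8 T cells were at least 2-fold higher, where 8.03% and 9.7% of all genes outside the call were.

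G2 and M genes went the other way, which the call favours because it weighs members against mitotic genes. At least 2-fold lower in S-called cells were 10 of 35 in hepatoma cells, against 1.52% of all genes, and 16 of 35 in CD8 T cells, against 5.05%. The lowest in CD8 T cells was Kif20a, a mitotic kinesin, at 0.239 (0.160 to 0.346), and in hepatoma cells Kif23, another, at 0.346 (0.318 to 0.375). Stmn1, a tubulin-binding protein, was not lower in CD8 T cells, at 1.10 (1.02 to 1.19). Of 11 genes of D-type cyclins and cell-cycle inhibitors, 1 was 2-fold lower in each class, Cdkn3, a phosphatase acting on Cdk. Cdkn1a, encoding the inhibitor p21, was at 1.25 in CD8 T cells (1.09 to 1.42) and at 0.990 in hepatoma cells (0.970 to 1.01). Of 8 histone genes, 1 lay above 1 in CD8 T cells, H1fx, a linker histone, at 1.83 (0.957 to 3.49), and 0 in hepatoma cells. The histone list was taken by symbol alone. Cells called mitotic, as defined below, were among the other cells, so these ratios do not compare S phase with resting cells.

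**Figure D3:**
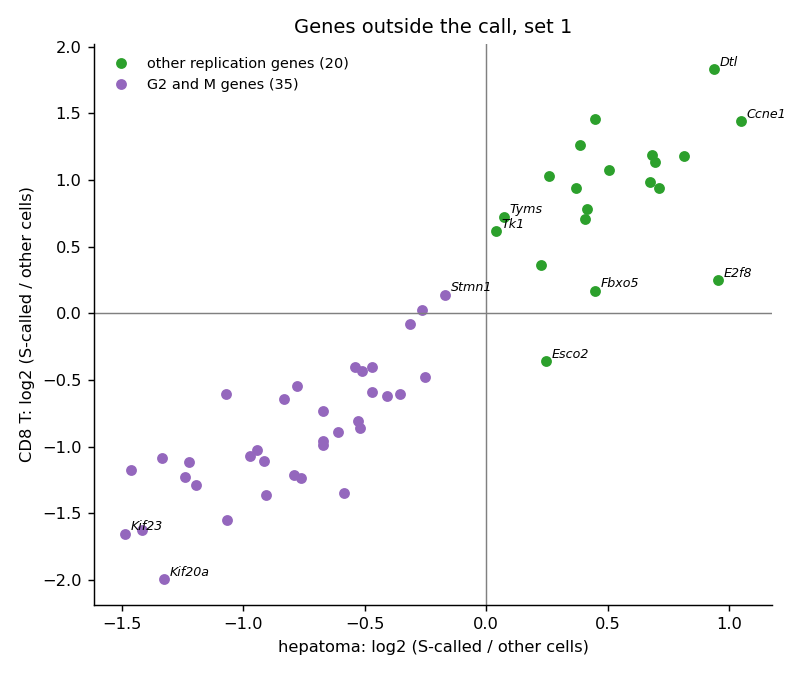
Log2 ratio of S-called over other cells in hepatoma cells (horizontal) and CD8 T cells (vertical) of set 1, for 20 other replication genes (green) and 35 G2 and M genes (purple), none used in the call. Dtl and Ccne1 lie at the upper right, and Esco2 is the replication gene below 0 in CD8 T cells.

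The members differed in how much of their level mitotic cells held. Cells called mitotic, with at least 2 mitotic genes and no fewer of these than of members, kept part of each member's level. Since the members entered both calls, these values are a description. In CD8 T cells Cdc6 stood at 122 CPM in S-called and 27.0 in mitotic-called cells, a ratio of 0.222 (0.172 to 0.284), and was at 0.965 in cells of neither call. Ccne2 stood at a ratio of 0.340 (0.256 to 0.449). Pclaf was level, at 500 and 510 CPM, a ratio of 1.02 (0.945 to 1.10), and Rrm2 stood at 0.852 (0.747 to 0.972). In hepatoma cells the ends of the order were the same, with Cdc6 lowest at 0.268 (0.247 to 0.290), Ccne2 next at 0.332 (0.308 to 0.358) and Pclaf highest at 0.808 (0.753 to 0.869). Rrm2, at 0.527 in hepatoma cells (0.504 to 0.550), lay lower there than in CD8 T cells, as did Clspn, at 0.401 (0.367 to 0.438) against 0.687 (0.573 to 0.823).

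**Figure D4:**
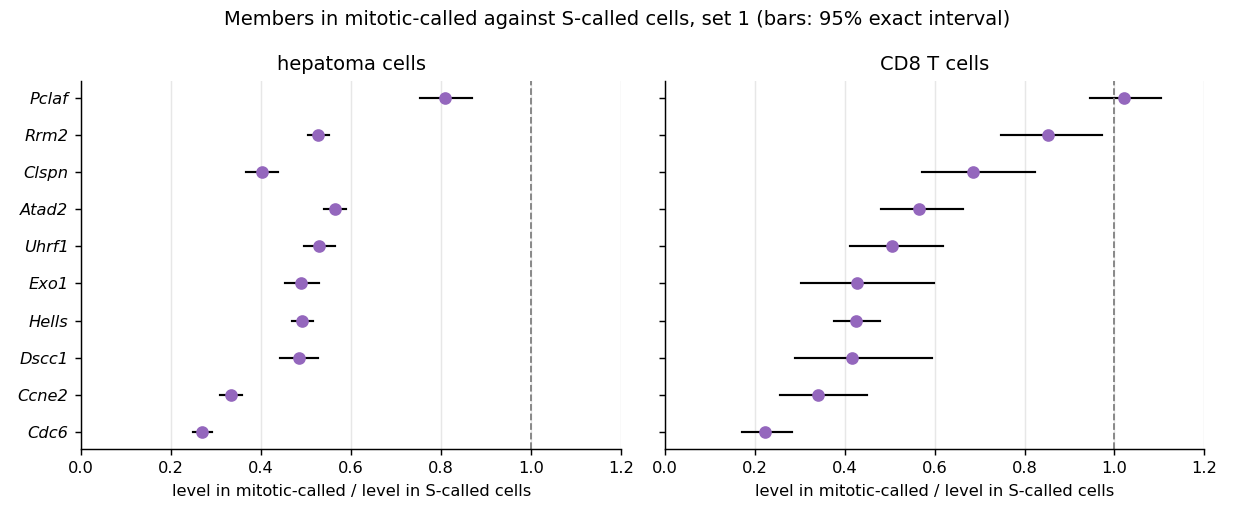
Level of each member in mitotic-called cells divided by that in S-called cells, for hepatoma and CD8 T cells of set 1; bars are 95% exact intervals and the dashed line marks equal levels. Cdc6 and Ccne2 lie lowest in both classes (0.268 and 0.332 in hepatoma cells), Pclaf highest.

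The genes whose values ran most like the mean of the 10 members were named by Pearson's r across the cells of a class in set 1. These points share a library and differ in depth, so r is a description. Over 5297 hepatoma cells the first 5 were Mcm5 (r = 0.615), Pcna (0.599), Top2a (0.597), Mcm3 (0.595) and Rrm1 (0.590), and the median over all genes was 0.00425. Over 905 CD8 T cells they were Stmn1 (0.650), Rrm1 (0.628), Tuba1b (0.620), Lig1 (0.600) and Top2a (0.595), with a median of 0.0113. Stmn1 was first in each of the 6 sets, with r from 0.650 to 0.709. Among the members, Rrm2 followed the mean of the other 9 most closely in hepatoma cells (0.669) and Ccne2 least (0.414). In CD8 T cells Pclaf did so most (0.633) and Dscc1 least (0.225).

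The S-called share was also read within classes, against transcripts outside the call. In all, 33 such divisions were made, 13 of CD8 T cells, 14 of hepatoma cells and 6 of macrophages, and those named here were chosen after their values were seen. The intervals lay apart after thinning in 10, and in 7 of these, all in hepatoma cells, the order was also the same in 6 of 6 sets on the deposited scale. Hepatoma cells with at least 2 of Ndrg1, Bnip3, Slc2a1 and Ero1l, genes known to rise in low oxygen, were S-called in 4.24% of 2216 cells (3.44 to 5.17), those without in 10.6% of 2956 (9.502 to 11.8). Their mitotic-called shares were 9.34% and 29.3%. With 3 or more of the 4 genes the S-called share was 2.37% (1.55 to 3.45).

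Cells with Cdkn1a were S-called in 5.11% (4.23 to 6.11) and those without in 9.93% (8.88 to 11.1). A pair of secreted liver products went the same way: with Ahsg the share was 5.66% against 9.36% without, and with Apoa1 4.58% against 8.29%. Others did not: with Ttr the share was 8.97% (7.75 to 10.3) against 7.19% (6.31 to 8.14), and with Spp2 8.52% (7.41 to 9.74) against 7.36% (6.43 to 8.37), with overlapping intervals, and higher in 3 and in 5 of 6 sets. With Wif1, a secreted Wnt inhibitor, it was 9.99% (8.27 to 11.9) against 7.31% (6.53 to 8.15), and higher in 5 of 6 sets. The share was also higher in cells with Ccnd1, encoding cyclin D1, at 10.2% (8.99 to 11.6) against 6.11% (5.28 to 7.04). For Hmgcs1, an enzyme of cholesterol synthesis, it was 10.2% (8.68 to 11.9) against 6.999% (6.21 to 7.86). Levels of Cdkn1a and Ccnd1 differed little between S-called and other hepatoma cells taken without thinning. The ratios were 0.990 (0.970 to 1.01) for Cdkn1a and 1.09 (1.07 to 1.12) for Ccnd1. In macrophages, cells with the chemokine Cxcl9 were S-called in 16.3% of 135 (10.5 to 23.6) and those without in 5.97% of 134 (2.61 to 11.4), with slightly overlapping intervals and the same order in 6 of 6 sets. No division of CD8 T cells met both conditions. Cells of 1 set share their library, so these are differences between cells of 1 pooled sample.

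**Figure D5:**
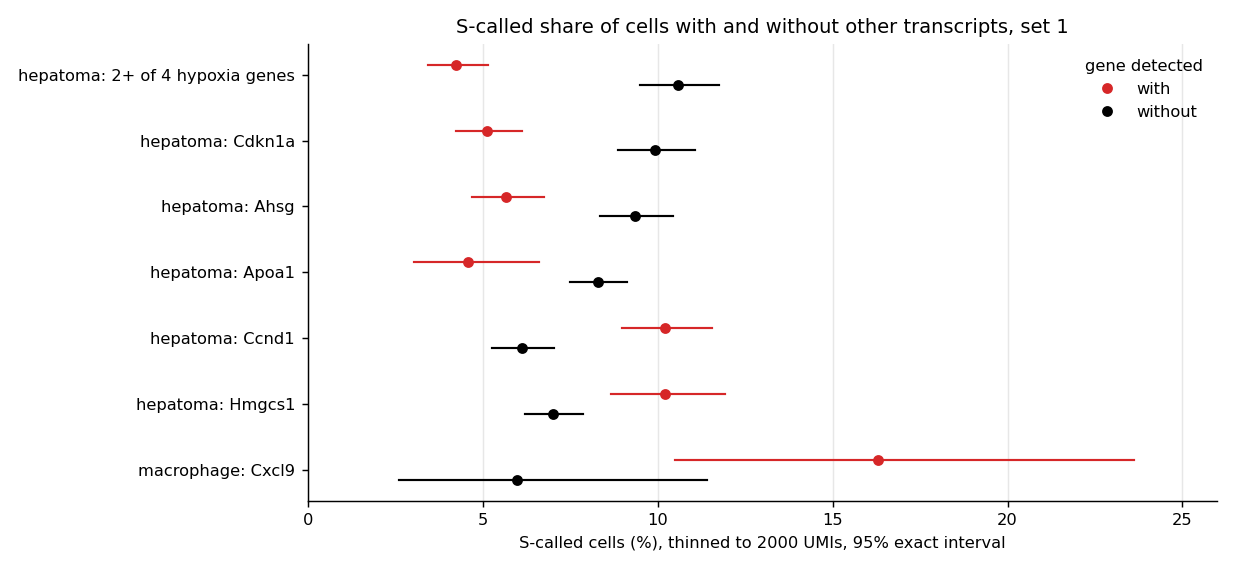
S-called share of hepatoma cells and macrophages of set 1, thinned to 2000 UMIs, with (red) and without (black) the named transcripts; bars are 95% exact intervals. Cells with at least 2 of Ndrg1, Bnip3, Slc2a1 and Ero1l lie at 4.24% against 10.6%, and cells with Ccnd1 at 10.2% against 6.11%.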

How the data were processed

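Per the labels' protocols, libraries were 3′ DNBelab C4 libraries, cells were chosen with barcodeRanks and UMIs were counted with PISA. STAR 2.7.2b and the builds GRCh38 and mm10 are named in the submitters' processing notes, and the protocol text names GRCh38, so the build behind this mouse table is uncertain and coordinates are those of RefSeq. Each deposited value is a natural log, of 1 plus UMIs per 10000, and the steps behind them are not given in the sources used here. In set 1 whole UMIs were recovered for 100% of nonzero values (tolerance 0.01), and the 2000 genes took 15.0% of its UMIs. All 44158 cells of the other 5 sets held values below 0, the mark of a step not given in the sources used here. The 53528 cell columns belong to no known sample. Cell names are running numbers, not barcodes: of 22421 names without the set number, 12741 occur in more than 1 set, so cells shared between libraries could not be counted.

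Classes were gated on markers present above 1 and absent up to 0.5, with exactly 1 lineage and Krt8 up to 1.5 outside hepatoma cells. T cells needed 2 of 5 markers, NK cells 2 of 8, macrophages 3 of 7, dendritic cells 2 of 9, and neutrophils and fibroblasts 3 of 8. The presence value was raised from 0.5 to 1 after member values had been seen, because deep cells entered the neutrophil gate on single UMIs. The 0.5 gate is kept as an alternative. Limits on Krt8 (first 2.0) and on NK and dendritic markers (first 3) were changed on marker values. Scrublet (scanpy 1.11.5, expected rate 6%) called 91 of 9370 cells of set 1, 0.971%, which were kept. The members and lists were chosen with earlier results of these data known. Named genes are the 10 members, of each list those with the 3 highest and 2 lowest ratios or fewer, and the 5 genes most correlated with the members in each of 2 classes; other names were chosen after their values were seen. A gene that this rule names is not reported here. Classes were compared with Python 3 tools (numpy, scipy), with 95% exact intervals, a floor of 3 UMIs and a pseudocount of 1 CPM. The steps were tested on simulated data. The cells are 1 pooled sample, so no test across samples was made.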

Additional observations from a re-analysis of the deposited data

Results flagged for a closer look

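Cells that met no gate stand outside every comparison above. Of the 17100 such cells, 2545 were in set 1 and 1975 of these reached 2000 UMIs. Thinned to that depth, 185 of them were called in S phase, or 9.37% (95% exact interval 8.12 to 10.7). No background was measured for these cells; neutrophils gave 4.17% without thinning and 25.0% of 12 cells at 2000 UMIs. The share lay between those of hepatoma cells, 7.87%, and CD8 T cells, 22.2%, and the mitotic-called share was 18.5%.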

How the results depend on the processing

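Of 232 values recomputed under another setting, 170 stayed inside the interval of the main value, or for counts within 1.5 times of it, and 62 did not. Among these, no order of CD8 T above hepatoma cells was turned, but no setting left Pclaf out of the S call. With detection above 0.3 the shares over the pooled sets, 21.6% and 21.2%, nearly met. A combination not among these settings turned the order. Without thinning, 1095 of 5297 hepatoma cells were S-called and 2162 others held at least 2 members. Among 905 CD8 T cells these counts were 253 and 239. Cells with at least 2 members, whatever their mitotic genes, were thus a larger share of hepatoma cells. S-called shares moved with the rule and the depth. With 3 members needed they were 3.96% in hepatoma cells, 14.9% in CD8 T cells, 5.204% in macrophages and 0% in fibroblasts, and with 1 member 17.2%, 31.4% and 19.7% in the first 3, 30.8% in dendritic cells and 16.0% in fibroblasts. Without the condition on mitotic genes they were 11.7% in hepatoma and 36.9% in CD8 T cells. Thinned to 1000 UMIs they were 3.74%, 14.0% and, in neutrophils, 0%; not thinned 20.7%, 28.0% and 4.17%; and with the stricter gate (markers above 1.5, Krt8 up to 1) 0% in neutrophils. Over the 6 sets pooled, detection above 0.3 gave 21.2% in hepatoma cells, as above, and 9.52% in fibroblasts. Detection above 1 gave 7.89% in hepatoma, 18.4% in CD8 T and 9.79% in CD4 T cells, 7.45% in macrophages, 4.66% in dendritic cells and 3.06% in fibroblasts, and 3 members needed gave 11.4%, 16.6%, 9.25%, 5.77%, 3.58% and 2.72% in the same order.

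Members at least 2-fold higher than in hepatoma cells numbered 3 in CD4 T cells by the mean over cells and 1 with the stricter gate, where 2 were lower. That gate gave 3 lower in regulatory T cells, on 7 cells, 0 higher and 6 lower in NK cells, 2 lower in macrophages, 0 higher and 6 lower in dendritic cells, and 0 higher and 5 lower in neutrophils. The gate at 0.5, added after seeing the data, gave 5 higher and 1 lower in NK cells, 0 lower in macrophages, 0 higher in dendritic cells, and 6 higher and 0 lower in neutrophils. A pseudocount of 10 CPM gave 0 lower in macrophages and fibroblasts and 0 higher in dendritic cells, and the mean over cells 2 lower in macrophages. For these gates, this pseudocount and the mean over cells, no share over all genes was computed. The counts are therefore not a result about the members. The stricter gate left 12 NK, 24 dendritic and 40 neutrophil cells in set 1, where a member without a UMI counts as lower through the pseudocount. The stricter gate put the members at 1044 CPM in CD8 T, 429 in CD4 T and 169 in NK cells, 324 in macrophages, 168 in dendritic cells and 180 in neutrophils. Of 20 other replication genes, at least 2-fold higher in S-called hepatoma cells were 4 with 3 members needed and 20 after thinning, and in CD8 T cells 17 after thinning. Leaving out called doublets moved no value out of its interval. Without Rrm2, the first 5 genes most like the members were the same 5 in hepatoma cells, and 4 of 5 were shared in CD8 T cells.

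No paired analysis was possible because the cell columns carry no replicate number and no result comes from a test. The cause of these shifts was not tested. Depth limits the 16 NK, 28 regulatory T, 36 dendritic, 45 CD4 T and 48 neutrophil cells of set 1, whose intervals are wide, and a single pooled sample gives no spread between animals.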

Other observations

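The member UMIs of neutrophils were unevenly held. Of 48 neutrophils of set 1, 2 had at least 100 UMIs of Camp. The deeper of them, with 16038 UMIs, had 1053 UMIs of Camp, 236 of Ngp, another granule gene, and 8 of 10 members. The other had 5339 UMIs, 267 of Camp, 60 of Ngp and 6 of 10 members. The remaining 46 cells held no Camp UMI, 1 Ngp UMI and 34 member UMIs. The 3 neutrophils with 3 or more members held 53 of the 71 member UMIs, so the member-rich cells were not the Camp-rich ones alone. These cells were singled out after their values were seen.

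Some divisions of CD8 T cells and macrophages gave another order in the thinned counts of set 1 than on the deposited scale of the 6 sets. These readings differ in depth, in the rule for detection and in the cells used, and which of these matters was not tested. Cells with Pdcd1, encoding PD-1, were S-called in 21.1% of 617 cells after thinning (17.9 to 24.5) and those without in 26.3% (19.8 to 33.7), whereas on the deposited scale cells with Pdcd1 were higher in 6 of 6 sets, with medians of 22.5% and 10.8%. Cells with Cx3cr1, a chemokine receptor, were S-called in 12.8% (8.28 to 18.6) against 25.0% (21.6 to 28.7) after thinning, and were lower in 2 of 6 sets on the deposited scale. In macrophages, cells with Mrc1, the mannose receptor, were at 5.34% (2.18 to 10.7) against 16.7% (10.9 to 23.95), and were lower in 2 of 6 sets. The order was the same in both readings for Gzmc, a granzyme: cells with it were at 30.6% of 49 CD8 T cells (18.3 to 45.4) against 21.6% (18.7 to 24.8), and were higher in 6 of 6 sets.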
